A study of Danio rerio with 32 samples.

Results

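The effect of a low concentration of dichlorvos (DDVP) on the zebrafish liver was set against the effect of 29 h without food, probe by probe, to ask how far liver transcripts moved differently under the pesticide than under the loss of food alone. DDVP is an organophosphorus insecticide that inhibits acetylcholinesterase. The comparison used 20 of the 32 arrays of the series and all probes of the deposited expression table. All fish were adult males (6 to 9 months old by the labels) of the Tübingen strain, kept in the same kind of flow-through aquaria, and no transgene or mutation is named for any group. The DDVP arm held 4 arrays of fish kept for 24 h at 6 mg/L, labelled Dichlorvos_low, and 8 arrays of unexposed fish in 2 control sets of 4, labelled Dichlorvos_control1 and Dichlorvos_control2, which were fed at the same times as the exposed fish. The nutrient restriction arm held 4 arrays of fed fish, labelled Fasting_control, which had flake food 4 h before harvest, and 4 arrays labelled Fasting_24h, which by the study's methods had been without food for 29 h and are called unfed 29 h below. In the study's usual design, fish of the DDVP arm were fed before the exposure and again several hours later, and were harvested at 24 h. Hours since the last meal at harvest are not given for them, and their controls were not matched to the fed fish in this. No toxicant was given in the nutrient restriction arm. Each array carried RNA pooled in equal mass from the livers of 4 or 5 fish, and the errors given are therefore those of pools, with the spread between single animals averaged within each. The arms were separate experiments and the offset between them was removed by the authors, so each arm was compared only with its own reference and the effects were then subtracted. The arms were read on different scanners. The subtraction takes a log2 unit to be of the same size in both arms, which was not tested.

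The liver handles food on several time scales. Soon after a meal it makes fatty acids, stores glycogen and secretes proteins. As hours pass without food it releases glucose, breaks down amino acids and oxidises fatty acids in mitochondria and peroxisomes. Exposure to a reactive chemical calls on another set of enzymes, which make and recycle glutathione, reduce peroxides and supply NADPH through the pentose phosphate pathway. Many of the latter genes are targets of the transcription factor Nrf2, and the glutathione and food programmes share some genes of amino acid metabolism, since cysteine, glutamate and glycine are the parts of glutathione.

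All levels below are log2 values of the deposited table. The low DDVP effect is the mean of the 4 low arrays minus the mean of the controls. The food effect is the mean of the unfed 29 h arrays minus the mean of the fed arrays, and the difference of effects is the former minus the latter. A probe was called when its adjusted p in limma (Benjamini-Hochberg over all probes of the table) was at most 0.001. The study kept these probes because they differed among groups in its own joint comparison, so the shares called below describe a preselected table and not the whole array. That comparison started from genes expressed in the DDVP analysis and held 20 DDVP and 12 nutrient restriction arrays. The table may thus favour DDVP responses, and the low DDVP effect rests on more arrays than the food effect. Counts and sizes of the effects are therefore not an even comparison of the arms. In every probe the means of control set 1, control set 2 and unfed 29 h are equal within 1e-04, so no distance among those 3 groups is measured, and the second control set adds no independent measure of the reference, although the fit counts it as one. With a single set the median standard error was 0.177 in place of 0.153 for the low DDVP effect and 0.250 in place of 0.234 for the difference. Arrays of the same group had squared correlations between 0.954 and 0.976. On the 8 scanner files of the fed and unfed 29 h arrays, 5379 probes of the table were well above background on every array. Of the probes, 3295 were matched through their RefSeq accessions to 2581 gene symbols, and the other 2186 stayed unnamed. A gene is reported by its brightest probe unless stated.

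The difference of effects was called for 1319 probes, which is 24.1% of the table. It was above 0 for 755 of them and below 0 for 564, or 13.8% and 10.3% of the table. With either control set used alone, 1057 were called, 607 above 0 and 450 below. The low DDVP effect on its own was called for 2647 probes (48.3%), 1292 higher (23.6%) and 1355 lower (24.7%), and with either control set alone for 2118. The food effect was called for 325 (5.93%), 132 higher in unfed fish (2.41%) and 193 lower (3.52%), but for 212 without fed replicate 1 and 208 without fed replicate 3. With the nutrient restriction arrays rebuilt from the median spot signal it was called for 177, and for 120 after normexp background correction of that signal. The balance of directions depended on the setting. With arrays centred on their medians 167 food effects were called higher and 140 lower, and 1432 low DDVP effects higher and 1296 lower. Among changes of at least 1.8-fold, 121 food effects were higher and 115 lower, and 733 low DDVP effects were higher and 950 lower. With the processed signal scaled to the 75th percentile, 841 differences of effects were called above 0 and 408 below. Over all probes the root mean square was 0.99 for the low DDVP effect, 0.52 for the food effect and 1.04 for their difference. The medians were 0.05, -0.09 and 0.14. The standard errors were of similar size, with medians of 0.153, 0.177 and 0.234. Across all probes the effects had a Pearson correlation of 0.16, given as a description, since probes are not independent and share the batch removal.

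**Figure D1:**
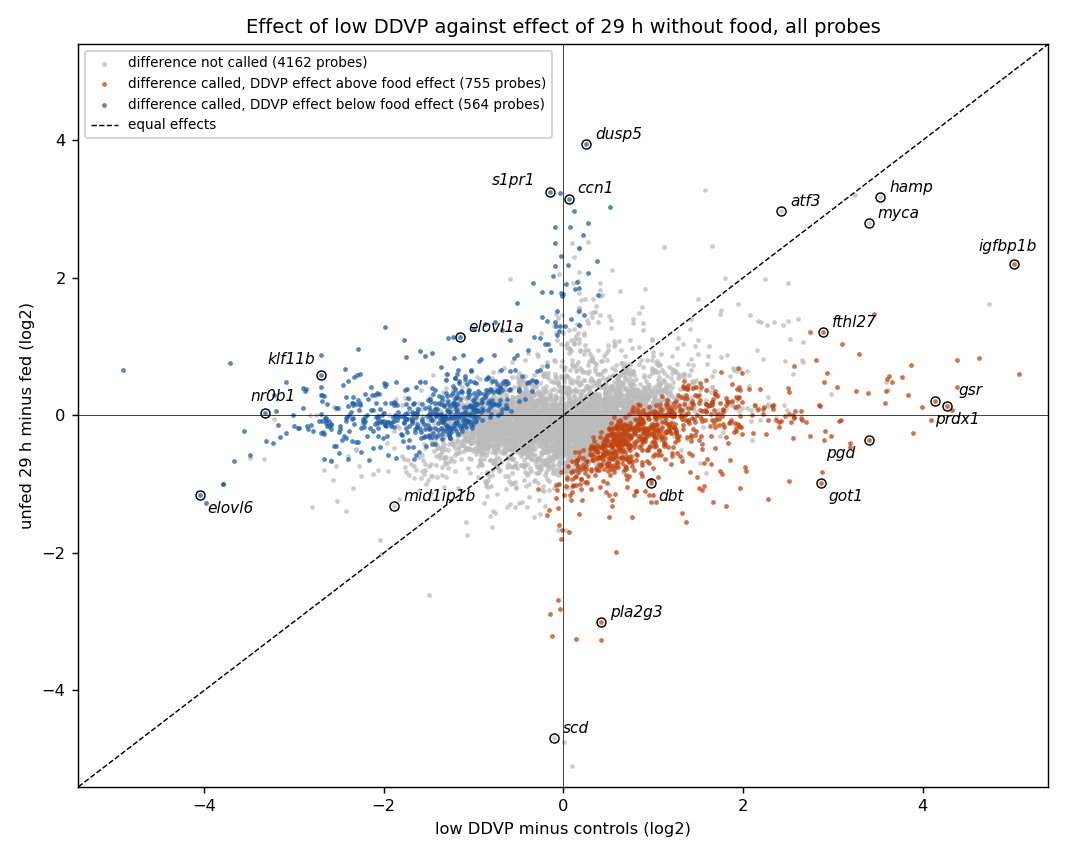
Low DDVP minus controls (x axis, log2) against unfed 29 h minus fed (y axis, log2) for every probe of the table. Orange points mark 755 probes and blue points 564 probes whose difference of effects was called above or below 0, grey points the rest, and the dashed line equal effects. Called points spread along the x axis with gsr and prdx1 at its right and nr0b1 and elovl6 at its left, and a narrow column with s1pr1, ccn1, dusp5 and pla2g3 runs along the y axis.

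Most called differences came with a called low DDVP effect and no called food effect. That was so for 1066 of the 1319 probes (19.4% of the table), 575 with a low DDVP effect above 0 and 491 below. Their median food effects were -0.18 and 0.02, which follows at least in part from picking probes with no called food effect. A further 124 (2.26% of the table) had a called food effect and no called low DDVP effect, 20 (0.365%) had both and 109 (1.99%) had neither called alone. Among all probes the low DDVP effect was called for 48.3% and the food effect for 5.93%. The order of these classes follows at least in part from those shares and is no separate result. The low DDVP effect was the larger in size in 1074 of the 1319, against 4031 of all probes (73.5%). The effects had opposite signs in 877 of the 1319, against 2519 of all probes (46.0%). A difference of effects is larger where signs are opposite, so that excess follows at least in part from the calling and is no separate result. Conversely, 1561 probes with a called low DDVP effect and 181 with a called food effect had no called difference. All 20 fits that left out a single array kept the call for 901 probes.

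Genes that make and recycle glutathione held some of the largest called differences above 0. On the low DDVP arrays gsr, which encodes glutathione reductase, read 13.31, 13.09, 12.66 and 13.08, and the 8 controls lay between 8.40 and 9.38 with a median of 8.67. The fed arrays read 8.91, 8.52, 8.24 and 8.84 and the unfed 29 h arrays 8.69, 8.24, 9.51 and 8.60. Every exposed pool lay above every control, while fed and unfed pools overlapped. Low DDVP raised gsr by 4.28 ± 0.20 (SE), or 19.4-fold, the food effect was 0.13 ± 0.23, and the difference was 4.14 ± 0.30 (adjusted p = 1.7e-11). The other probes of gsr gave differences of 4.24 and 3.87, which were called, and 1.89, which was not (adjusted p = 0.011). The subunits of glutamate-cysteine ligase, which catalyses the rate-limiting step of glutathione synthesis, behaved alike. gclc read 12.87, 12.84, 12.07 and 12.35 under DDVP against controls between 9.34 and 9.93, and gclm read 12.00, 12.00, 11.63 and 11.57 against 8.5 to 9.22. Their differences were 2.69 ± 0.21 (adjusted p = 6.8e-11) and 2.72 ± 0.24 (adjusted p = 8.7e-10), with food effects of 0.16 and 0.14. gss, the next enzyme of that pathway, rose by 1.00 ± 0.24 under DDVP with a food effect of 0.86 ± 0.28 that was not called, and its difference was 0.13 ± 0.36. chac2, a glutathione-degrading enzyme, went the other way with a difference of -2.42 ± 0.49 (adjusted p = 0.00022), and lost its call when only the 20 arrays compared were fitted. Over the 14 probes of this list the difference was called above 0 for 6 and below 0 for 1 (13.8% and 10.3% of all probes). No food effect was called, against 5.93% of all probes, a share at which so short a list would hold few or none. The median difference was 0.91 against 0.14 over all probes. It was 0.54 over the probes well above background on every fed and unfed 29 h array.

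Among peroxide-reducing and other Nrf2-linked genes the members went both ways. The peroxiredoxin gene prdx1 read 12.07, 11.06, 11.33 and 11.30 under DDVP and 6.59 to 8.16 in the controls, a 17.6-fold rise. Fed arrays read 7.86, 6.52, 6.70 and 7.27 and unfed 29 h arrays 7.72, 6.37, 7.78 and 7.33, so the nutrient restriction groups overlapped, and the difference was 3.93 ± 0.47 (adjusted p = 1.5e-07). pir (pirin, a nuclear protein known in humans to be induced through Nrf2) differed by 3.54 ± 0.24 (adjusted p = 6.5e-12). txnrd3, a thioredoxin reductase gene, differed by 2.55 ± 0.17 (adjusted p = 6.4e-12), and maff, a small Maf protein that pairs with Nrf2, by 2.01 ± 0.33 (adjusted p = 1.6e-05). prdx5, a peroxiredoxin of mitochondria and peroxisomes, differed by -1.90 ± 0.36 (adjusted p = 0.0001), and prdx4, ephx1 (an epoxide hydrolase) and cat (catalase) were lower under DDVP too. Over 23 probes of this list 7 differences were called above 0 and 5 below (13.8% and 10.3% of all probes), and the median was 0.02. Glutathione transferases had 4 of 12 probes called above 0, from gstt1b (1.64 ± 0.30), mgst1.2 and mgst3b, and none below, although the list's median was -0.58. Under DDVP 6 of the 12 were called lower and 5 higher (24.7% and 23.6% of all probes). No food effect was called in either list, against 5.93% of all probes, a share at which lists this short would hold few.

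Every called difference among pentose phosphate and amino acid genes was above 0, and part of each list lay below 0 without a call. pgd, which encodes the 6-phosphogluconate dehydrogenase of the pentose phosphate pathway, read 13.97, 13.27, 12.65 and 13.47 under DDVP, 9.25 to 10.35 in controls, 11.17, 9.64, 10.20 and 10.13 in fed fish and 10.12, 9.41, 10.50 and 9.70 in unfed fish. Exposed and control pools did not overlap and fed and unfed pools did, with a difference of 3.76 ± 0.37 (adjusted p = 5.5e-09). tktb, a transketolase gene, differed by 1.37 ± 0.22 (adjusted p = 1.6e-05) on its brighter probe, from a rise of 0.61 under DDVP and a food effect of -0.76 that was not called (adjusted p = 0.0015). On its other probe the difference was 1.61 ± 0.21 and the food effect of -0.88 was called (adjusted p = 0.00015). In all 4 of 12 pentose phosphate probes were called above 0 and none below (13.8% and 10.3% of all probes), while 5 of the 12 had values below 0. got1, the cytosolic aspartate aminotransferase, moved in opposite directions in the arms. It read 13.43, 13.34, 12.88 and 13.05 under DDVP against controls from 10.06 to 10.65, and fell from 11.45, 11.30, 11.25 and 11.15 in fed fish to 9.92, 10.60, 10.53 and 10.16 in unfed fish. Neither pair of groups overlapped, and the difference was 3.86 ± 0.23 (adjusted p = 1.4e-12). bcat1, a branched-chain aminotransferase, differed by 3.69 ± 0.37 (adjusted p = 7.5e-09). cth, which makes cysteine by transsulfuration, differed by 2.84 ± 0.32 (adjusted p = 6.5e-08), and the tyrosine-degrading enzyme gene tat by 1.68 ± 0.25 (adjusted p = 4.7e-06). Of 37 probes for amino acid metabolism 19 were called above 0 and none below, with a median of 0.98, and 10 had values below 0. gatm, which starts creatine synthesis, had the lowest value there, -2.87 ± 0.74 (adjusted p = 0.0019), and was not called. fbp1a, a fructose-1,6-bisphosphatase gene of gluconeogenesis, read 13.67, 13.56, 13.51 and 13.58 under DDVP and 10.58 to 11.19 in controls. Its food effect was -0.03 ± 0.16, and the difference was 2.60 ± 0.21 (adjusted p = 1.5e-10). The other glucose genes called above 0 were gpia (1.26), pgam1a (0.90), tpi1b (0.70) and ldhba (2.25 on its brighter probe, with 1.93 and adjusted p = 0.0014, not called, on the other), while the pyruvate dehydrogenase kinase gene pdk2a lay at -2.48 ± 0.33. The brighter ldhba probe kept its call in 7 of the 20 left-out fits and lost it with either control set alone.

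**Figure D2:**
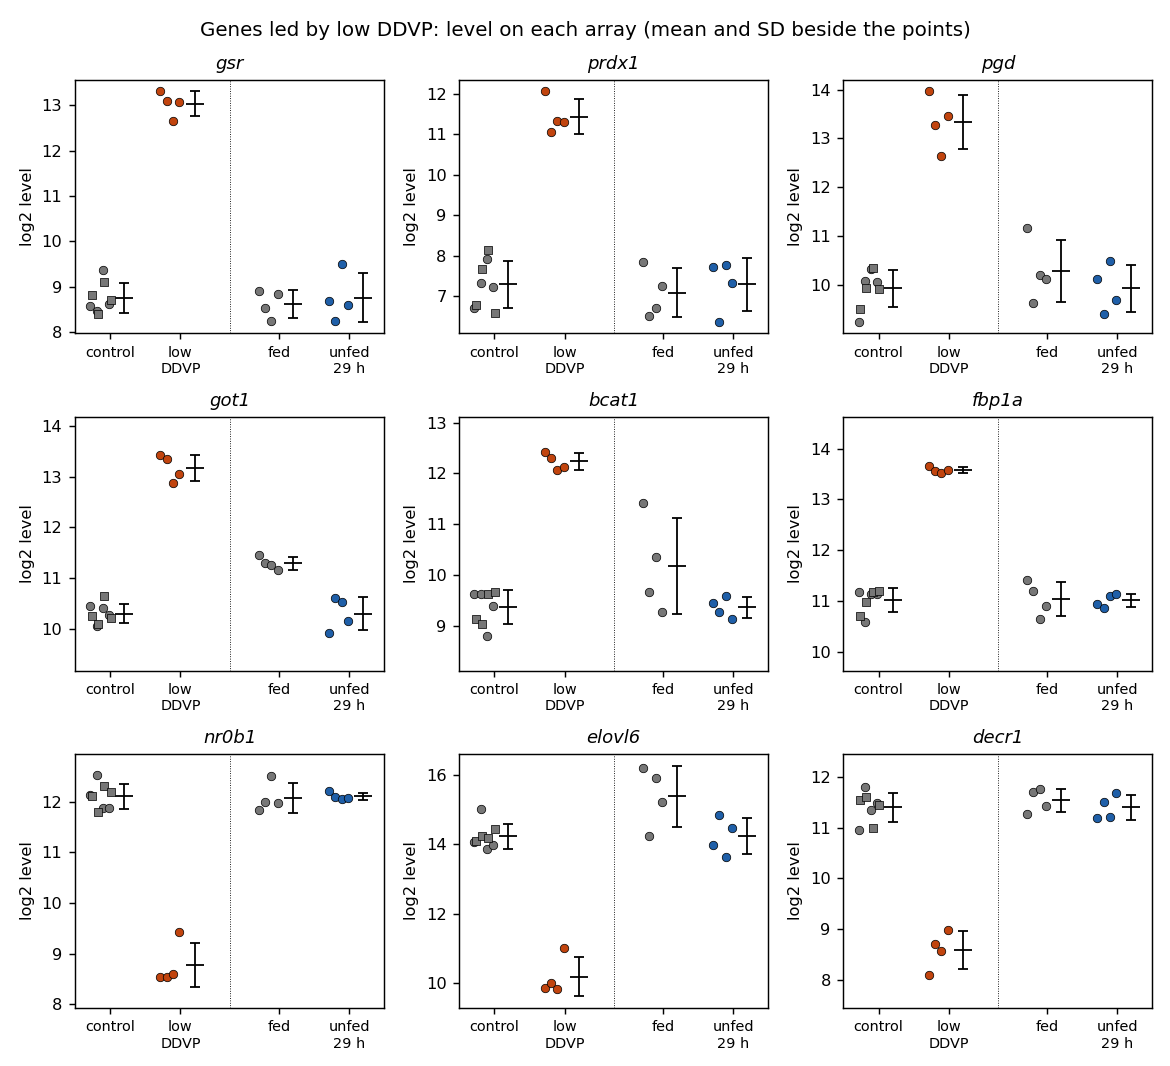
Log2 level of 9 genes on each array (y axis) in controls (circles, set 1, and squares, set 2), low DDVP, fed and unfed 29 h pools, with the group mean and SD beside the points. The 4 low DDVP pools lie above all controls for gsr, prdx1, pgd, got1, bcat1 and fbp1a and below all controls for nr0b1, elovl6 and decr1, and each arm is to be read against its own reference.

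The remaining genes among the 10 largest differences above 0 had mixed roles. sgk1, a serum- and glucocorticoid-regulated kinase, rose 14.6-fold and differed by 3.15 ± 0.31 (adjusted p = 6.7e-09). It stood just outside those 10 and was added after its values were seen. th2, a tyrosine hydroxylase gene, differed by 3.60 ± 0.56 (adjusted p = 9.7e-06), zte38 by 3.49 ± 0.46 and arl13a, a small GTPase gene, by 3.25 ± 0.31. The low replicate 3 array of arl13a read 10.84, under the other exposed pools at 11.53 to 11.57, and still above the highest control at 9.01.

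Mitochondrial fatty acid oxidation held more differences called below 0 than any other list. decr1, the mitochondrial 2,4-dienoyl-CoA reductase, read 8.10, 8.71, 8.57 and 8.98 under DDVP and 10.96 to 11.80 in controls. In fed fish it read 11.28, 11.71, 11.76 and 11.42 and in unfed fish 11.19, 11.51, 11.20 and 11.69, so the exposed pools stood apart and the nutrient restriction groups overlapped. The low DDVP effect was -2.81 ± 0.16, the food effect -0.14 ± 0.19 and the difference -2.67 ± 0.25 (adjusted p = 3e-09). hadh, of the short-chain end of the spiral, differed by -1.87 ± 0.22 (adjusted p = 1.5e-07) and cpt2, which brings fatty acids into the mitochondrial matrix, by -1.68 ± 0.24 (adjusted p = 3.4e-06). hadhb, a subunit of the trifunctional protein, differed by -1.19 ± 0.19 (adjusted p = 1.1e-05). Of 27 probes for mitochondrial fatty acid oxidation 16 were called below 0 (10.3% of all probes) and 1 above. Under DDVP 21 were called lower (24.7% of all probes) and without food 1 (3.52%), and the median difference was -1.02 against 0.14 over all probes. The probe above 0 was acad8 (1.49 ± 0.21, adjusted p = 2.8e-06), which acts in valine breakdown. Peroxisomal genes had 3 of 17 probes called below 0 (10.3% of all probes), led by crot (-1.96 ± 0.34), a carnitine acyltransferase, and ech1 (-1.49 ± 0.21), an isomerase of unsaturated chains. Of the 17, 12 had a called lower level under DDVP (24.7% of all probes).

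Genes of fatty acid synthesis and elongation split by gene. elovl6, an elongase of long-chain fatty acids, read 9.87, 10.01, 9.83 and 11.02 under DDVP and 13.87 to 15.03 in controls, a 16.6-fold fall. In fed fish it read 16.20, 14.23, 15.92 and 15.21 and in unfed fish 13.98, 14.84, 13.64 and 14.48. The exposed pools lay below every control, and the food effect of -1.16 ± 0.37 had the same sign and was not called (adjusted p = 0.024). Their difference was -2.89 ± 0.49 (adjusted p = 2.5e-05). scd, which encodes stearoyl-CoA desaturase, had the largest food effect among the genes named here, and its low DDVP effect was -0.11 ± 0.85. Fed arrays read 13.08, 10.96, 13.59 and 11.89 and unfed 29 h arrays 8.66, 8.14, 8.21 and 5.73, a food effect of -4.69 ± 0.98 (adjusted p = 0.00083). Its control arrays ran from 5.70 to 9.77 and its low DDVP arrays read 7.92, 7.35, 6.74 and 8.31, within that range. The difference of 4.59 ± 1.30 was not called (adjusted p = 0.004). On unfed 29 h arrays scd was well above background on 3 of 4. mid1ip1b, which stimulates acetyl-CoA carboxylase in mammals, fell in both arms, by 1.88 ± 0.21 and 1.32 ± 0.24, with a difference of -0.56 ± 0.32. Its paralogue mid1ip1l rose by 1.03 ± 0.23 under DDVP and fell by 1.26 ± 0.27 without food, a difference of 2.29 ± 0.35 (adjusted p = 7.3e-06). elovl1a, an elongase of very long chains, had the reverse pattern. It read 8.12, 8.67, 9.16 and 9.05 under DDVP, 9.37 to 10.30 in controls, 8.56, 8.72, 8.63 and 9.15 in fed fish and 10.01, 9.84, 9.77 and 9.98 in unfed fish, with no overlap in either arm and a difference of -2.29 ± 0.31 (adjusted p = 1.1e-06). Over 22 probes the difference was called above 0 for 1 and below 0 for 6 (13.8% and 10.3% of all probes), and the median was -0.62. Of cholesterol synthesis only 3 genes were in the table. acat2, which condenses acetyl-CoA at the start of that pathway, was called on all 3 of its probes (3.13 ± 0.54 on the brightest, adjusted p = 3.5e-05), and tm7sf2, a sterol reductase, stood at -1.96 ± 0.54 (adjusted p = 0.0031). Over the 5 probes of that list the median low DDVP effect was 1.36 and the median food effect -1.26, with no food effect called.

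Other large differences below 0 were carried by single genes. nr0b1, an orphan nuclear receptor (DAX1), read 8.54, 8.55, 8.61 and 9.42 under DDVP and 11.80 to 12.53 in controls, while fed arrays at 11.83, 11.99, 12.50 and 11.96 overlapped unfed arrays at 12.20, 12.09, 12.06 and 12.06. The low DDVP effect was -3.32 ± 0.16, the food effect 0.03 ± 0.19 and the difference -3.35 ± 0.25 (adjusted p = 2.5e-11). slc25a36a, a mitochondrial nucleotide carrier, differed by -3.52 ± 0.34 (adjusted p = 3.8e-09). slc25a39, known in mammals as a carrier of glutathione into mitochondria, differed by -2.94 ± 0.34 (adjusted p = 9.5e-08), and klf11b, a Krüppel-like transcription factor, by -3.29 ± 0.34 (adjusted p = 1e-08). abhd3 (-3.12 ± 0.30) and map7d1b (-3.01 ± 0.23) were also among the 10 lowest, as was the collagen gene col1a2 (-2.90 ± 0.55, adjusted p = 0.00011). col1a2 lost its call when only the 20 arrays compared were fitted, and its controls ran from 9.46 to 12.19. In bulk tissue, fewer cells of a type and less RNA per cell cannot be told apart.

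A smaller group was led by food, with low DDVP near its controls. s1pr1, a receptor for sphingosine-1-phosphate known from endothelium and lymphocytes, read 5.63, 6.02, 6.00 and 6.34 in fed fish and 9.27, 8.19, 10.11 and 9.42 in unfed fish. Its low DDVP arrays read 9.55, 9.35, 8.79 and 8.70 within controls from 8.60 to 10.06. Unfed pools all lay above fed pools, by 3.25 ± 0.39, the low DDVP effect was -0.15 ± 0.34 and the difference -3.4 ± 0.52 (adjusted p = 6.7e-06). ccn1, a secreted matricellular protein, read 5.42, 5.19, 5.32 and 5.47 in fed fish and 8.76, 7.72, 9.16 and 8.38 in unfed fish, again without overlap. Under DDVP it read 8.43, 8.57, 8.81 and 8.45 within controls from 8.06 to 8.94, and the difference was -3.09 ± 0.55 (adjusted p = 4.3e-05). gadd45bb, a growth arrest and DNA damage gene, differed by -2.85 ± 0.51, and its fed level was well above background on 2 of 4 arrays. It lost its call when the nutrient restriction values were rebuilt from the median spot signal. dusp5, a phosphatase of the MAP kinase ERK, and tubb6, a beta-tubulin, were added after their values were seen. They had food effects of 3.94 ± 0.60 and 2.74 ± 0.22 and differences of -3.69 ± 0.79 (adjusted p = 0.00037) and -2.83 ± 0.30 (adjusted p = 1.7e-08). tubb6 was well above background on 3 of 4 fed arrays, and its difference was -1.66 when rebuilt from the median spot signal and -1.27 after normexp background correction of that signal, both called. dusp5 lost its call in 5 of the 20 left-out fits, namely without low replicate 4, unfed 29 h replicate 1, 3 or 4, or fed replicate 2. It also lost the call with variances not moderated and after normexp correction of the median spot signal. In the opposite direction pla2g3, a secreted phospholipase A2, read 9.94, 10.04, 9.07 and 10.15 in fed fish and 5.72, 6.83, 7.81 and 6.81 in unfed fish. Its low DDVP arrays at 8.43, 7.62, 6.43 and 6.37 overlapped controls from 6.26 to 7.28, and the difference was 3.43 ± 0.55 (adjusted p = 1.3e-05). Of the 124 probes with a called difference, a called food effect and no called low DDVP effect, 51 were higher in unfed fish and 73 lower. Over all probes 132 food effects were called higher and 193 lower, a similar balance. On the scanner files of the same arrays the leukocyte markers lcp1, mpeg1.1 and mpx were 0.94 to 1.32 higher in unfed pools, with summed log2 signals of 12.5 to 13.4 against 11.4 to 12.6 in fed pools. Of 2 endothelial markers 0 were well above background on all 8 arrays. The part of such cells in these genes was not tested. Of the 124 probes, those higher in unfed fish had a median food effect of 1.78 and a median low DDVP effect of -0.04, and the lower ones -1.02 and 0.14. These medians follow at least in part from how the 124 were picked and are no separate result.

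**Figure D3:**
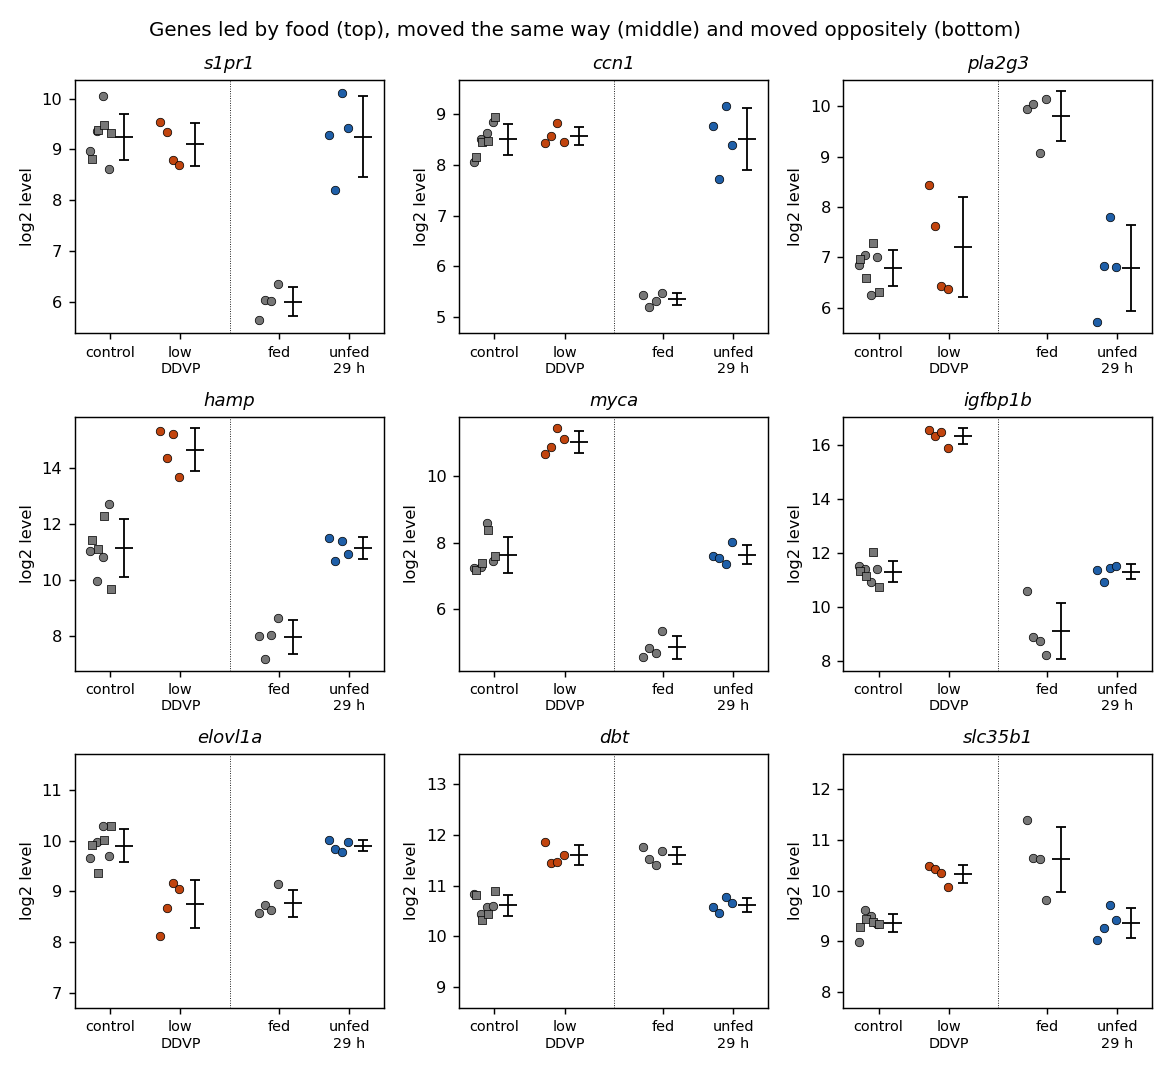
Log2 level on each array (y axis) of s1pr1, ccn1 and pla2g3 (led by food), hamp, myca and igfbp1b (moved the same way in both arms) and elovl1a, dbt and slc35b1 (moved opposite ways), in controls (circles, set 1, and squares, set 2), low DDVP, fed and unfed 29 h pools with mean and SD. In the top row low DDVP pools overlap their controls and unfed pools stand apart from fed pools, in the middle row both effects go up, and in the bottom row low DDVP and unfed 29 h pools lie on opposite sides of their references.

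Some genes moved the same way in both arms. The effects were called together for 70 probes (1.28% of the table). The signs were the same for 54 (24 higher and 30 lower) and opposite for 16. Among all probes, called or not, 46.0% had opposite signs. The 70 are part of 325 probes with a called food effect, and the low DDVP effect was called for 48.3% of all probes. Joint calls thus fell under that share of the 325, in a table preselected for differences among groups, and the cause was not tested. The difference was called for 4 of the 54 and for all 16. Opposite signs add to the size of a difference, so the call for all 16 follows largely from how they were picked. hamp encodes hepcidin, the liver hormone that limits iron release. It read 15.32, 14.38, 15.23 and 13.68 under DDVP against controls from 9.67 to 12.71, and 11.50, 10.66, 11.41 and 10.94 in unfed fish against 8.0, 7.16, 8.03 and 8.63 in fed fish. Neither pair overlapped. The rises were 11.5-fold and 9.01-fold, and the difference of 0.35 ± 0.61 had a 95% interval from -0.89 to 1.60. A second hamp probe gave rises of 3.25 and 3.21 and a difference of 0.04. The proto-oncogene myca rose by 3.4 ± 0.27 under DDVP and 2.80 ± 0.31 without food, with a difference of 0.60 ± 0.42 and an interval from -0.25 to 1.45. The stress-response transcription factor atf3 rose by 2.42 ± 0.42 and 2.97 ± 0.49 (interval of the difference -1.87 to 0.77), and pcbp4, an RNA-binding protein gene, by 2.5 ± 0.31 and 1.92 ± 0.36 (interval -0.40 to 1.56). Each of these 4 intervals reaches past 1 in size on one side, so the genes are not shown to respond alike. igfbp1b, which binds insulin-like growth factors and is known to rise when insulin is low, rose the most of these under DDVP. It read 16.57, 16.35, 16.47 and 15.90 under DDVP against controls from 10.72 to 12.02, a 32.5-fold rise. Unfed pools at 11.35, 10.91, 11.45 and 11.49 lay above fed pools at 10.59, 8.87, 8.74 and 8.19, a 4.61-fold rise. The difference of 2.82 ± 0.42 was called (adjusted p = 4.4e-06). Its paralogue igfbp1a rose by 2.27 ± 0.23 and 1.31 ± 0.27, a difference of 0.96 ± 0.36 that was not called (adjusted p = 0.023), and the ferritin gene fthl27 rose by 2.89 ± 0.19 and 1.21 ± 0.22, a difference of 1.69 ± 0.29 (adjusted p = 2.9e-05).

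Of the 16 probes called with opposite signs, 13 were higher under DDVP and lower without food. Beside got1 and mid1ip1l they held dbt, a subunit of the branched-chain ketoacid dehydrogenase. It read 11.87, 11.44, 11.46 and 11.61 under DDVP against controls from 10.32 to 10.89, and 10.58, 10.45, 10.78 and 10.65 in unfed fish against 11.76, 11.53, 11.40 and 11.68 in fed fish. The groups of each arm did not overlap, and the difference was 1.96 ± 0.18 (adjusted p = 2.5e-09). slc35b1, a transporter of the endoplasmic reticulum, read 10.48, 10.42, 10.36 and 10.08 under DDVP against controls from 8.99 to 9.62, and 9.03, 9.27, 9.72 and 9.43 in unfed fish against 11.40, 10.64, 10.62 and 9.82 in fed fish, a difference of 2.23 ± 0.32 (adjusted p = 2.6e-06). Genes of the secretory pathway with the same pattern, named after their values were seen, were srpra, a subunit of the signal recognition particle receptor (1.40 ± 0.18), sec22bb, a SNARE of transport from the endoplasmic reticulum (1.31 ± 0.18), and ddrgk1, of protein UFMylation at that organelle (1.26 ± 0.18). In the same arrays exocrine pancreas genes, whose tissue lies close to and within the zebrafish liver, moved with food. All 11 of 11 such genes found on the scanner files were lower in unfed fish, by 0.98 to 1.47 on the log2 scale. Their summed log2 signal lay between 18.4 and 19.6 in fed pools and between 16.7 and 18.3 in unfed pools. The hepatocyte markers on the array were well above background on all 8 arrays in 6 of 6 cases with a median food effect of -0.01. Erythrocyte markers had a median of 0.45, from -2.23 to 0.57, and 3 of 4 were well above background on all 8 arrays. The lowest value was that of hbba2, whose fed arrays had an SD of 5.19. Vitellogenins had a median of -0.07, from -1.03 to -0.03, with 1 of 3 well above background on all 8 arrays. That median is set by dim genes, since vtg2 averaged 1.44 in fed and 1.40 in unfed fish and vtg4 3.13 and 3.06. The brighter vtg5 averaged 11.39 in fed and 10.36 in unfed fish. None of the pancreas, leukocyte, endothelial, erythrocyte or vitellogenin genes is among the probes of the table, so the same check was not made on the DDVP arrays. The part of other cell types in the food effect, in these secretory genes, was not tested.

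Among protein quality control and translation genes, called differences in the proteasome and chaperone lists were all above 0. The chaperone gene calr, called below 0, was counted in the list of the unfolded protein response. Food effects were called for 0 of 40 proteasome and 2 of 41 chaperone probes, against 5.93% of all probes. Differences over all probes were called above 0 for 13.8% and below 0 for 10.3%. Of 40 proteasome probes 10 were called above 0 and none below. psmd11b (1.65 ± 0.23, adjusted p = 2.4e-06) combined a rise of 0.96 under DDVP with a food effect of -0.69 that was not called (adjusted p = 0.0048), and psmd4a (1.11 ± 0.18) and psmd8 (1.26 ± 0.22) likewise had food effects below 0 that were not called. The median difference was 0.48. Of 41 chaperone probes 11 were called above 0 and none below, with a median of 0.44. The highest was zfand2a (2.34 ± 0.21, adjusted p = 1.3e-09), known in mammals as an arsenite-inducible partner of the proteasome. The mitochondrial chaperonin gene hspd1 differed by 1.58 ± 0.28 on its brighter probe and had 0.63 (adjusted p = 0.015, not called) on the other. The heat shock gene hsp70l rose by 1.95 ± 0.34 under DDVP beside a food effect of 1.62 ± 0.40, which was not called, and differed by 0.33 ± 0.53. Aminoacyl-tRNA synthetases had 4 of 8 probes called above 0, from mars1 (2.00 ± 0.24), yars1 (1.58 ± 0.23) and tars1. tars1 was led by food, with a low DDVP effect of 0.10 ± 0.10 and a food effect of -0.80 ± 0.11. Genes of the unfolded protein response and of amino acid lack went both ways, with 2 of 16 called above 0 and 3 below and a median of 0.05. The chaperone gene calr had the lowest difference (-2.03 ± 0.40) and the eIF2 phosphatase subunit ppp1r15a the highest (1.70 ± 0.42, adjusted p = 0.0013, not called), and manf and dnajb9b had called differences (1.63 ± 0.32 and 1.85 ± 0.37) from effects of opposite sign that were not called alone. Mitochondrial ribosomal proteins had 2 of 33 called above 0 and 1 below. Their food effect was called lower for 6 (3.52% of all probes) and the median food effect was -0.47 against -0.09 over all probes. Respiratory chain and ATP synthase genes had 1 of 28 called above 0 and none below, a share under that of all probes.

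Autophagy genes were mostly higher under DDVP. Their low DDVP effect was called higher for 12 of 18 probes and lower for 1, against 23.6% and 24.7% of all probes. No food effect was called, against 5.93% of all probes. The difference was called above 0 for 5 and below 0 for none, with a median of 0.74. atg14, a subunit of the kinase complex that starts autophagosomes, read 9.99, 10.31, 10.45 and 10.47 under DDVP against controls from 8.03 to 8.88. Unfed arrays at 8.37, 8.44, 8.35 and 8.53 overlapped fed arrays at 7.95, 8.55, 8.07 and 7.27, and the difference was 1.42 ± 0.28 (adjusted p = 0.00017). map1lc3a, which coats autophagosomes, and lamp2, of the lysosomal membrane, differed by 0.93 ± 0.22 and 0.91 ± 0.21 and were called, but kept the call in 5 and 4 of the 20 left-out fits and lost it with either control set alone. wdr45b lay at the other end (-0.83 ± 0.23, not called). Insulin and nutrient signalling genes had 4 of 24 called above 0 and 1 below, close to or under the 13.8% and 10.3% of all probes. Their low DDVP effect was called higher for 15 and lower for 3 (23.6% and 24.7% of all probes), and the food effect higher for 5 (2.41% of all probes). Iron-handling genes had 2 of 9 called above 0. The transferrin receptor gene tfr1b rose by 2.33 ± 0.24 under DDVP with a food effect of 0.16 ± 0.28, a difference of 2.17 ± 0.37 (adjusted p = 2.5e-05), and the iron exporter gene slc40a1 had a difference of 1.24 ± 0.59 (adjusted p = 0.067, not called). Of glycogen genes 3 of 9 were called above 0 and 2 below, from phkg2, a phosphorylase kinase subunit (2.15 ± 0.33), to ppp1r3b, which targets a phosphatase to glycogen (-2.07 ± 0.43). gsk3ba, a glycogen synthase kinase 3 gene, was led by food, falling by 1.04 ± 0.16 in unfed fish.

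The other lists moved little or in part. Over all probes 13.8% of differences were called above 0 and 10.3% below. Clock genes had 3 of 11 called below 0 and none above, namely nfil3-6 (-2.43 ± 0.43), per2 (-1.09 ± 0.22) and bmal1a, with a median of -0.65, while nfil3 had the highest value (1.95 ± 0.53, not called). Cytochrome P450 genes had 2 of 23 called above 0 and 3 below, close to those shares. cyp1a, the classical marker of aryl hydrocarbon receptor activity, stood at -0.71 ± 0.39 (adjusted p = 0.11). cyp24a1, which inactivates vitamin D, rose 12.2-fold under DDVP, but fed arrays of it ran from 7.12 to 11.77, and its difference of 3.25 ± 1.01 was not called (adjusted p = 0.0075). Of the secreted liver proteins, coagulation genes had 1 of 10 called below 0 (f7i, -1.62 ± 0.23), and apolipoproteins none of 5, near or under the share of all probes. The fibrinogen gene fgg differed by -0.10 ± 0.17 and apobb.1 by -0.09 ± 0.15, and both changed sign when the processed signal was scaled to a percentile.

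**Figure D4:**
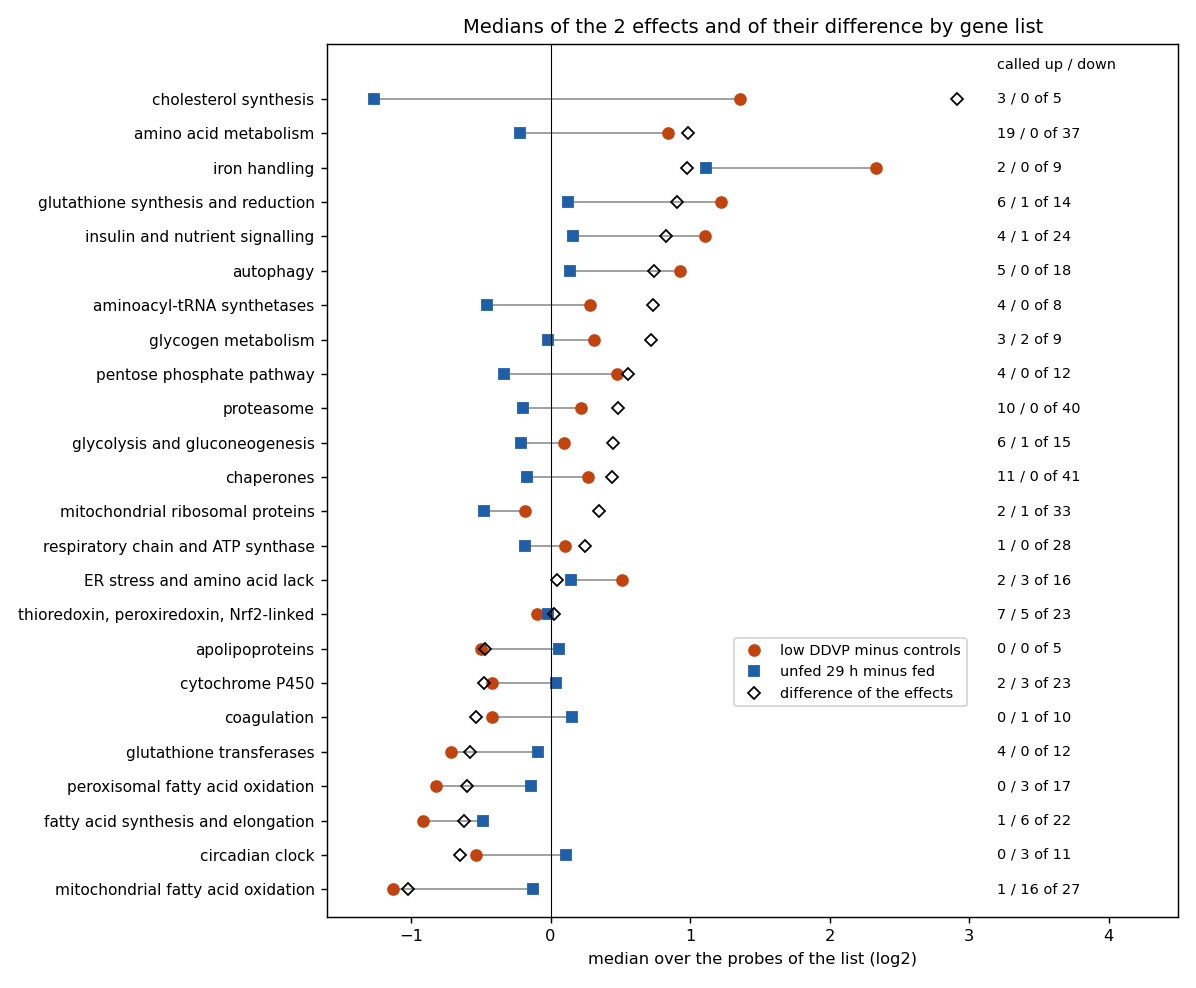
Median over the probes of each gene list (x axis, log2) of the low DDVP effect (circles), the food effect (squares) and their difference (diamonds), with the number of probes whose difference was called above and below 0. Mitochondrial fatty acid oxidation lies lowest with a median difference of -1.02 and 16 of 27 probes called below 0, amino acid metabolism has 19 of 37 called above 0, and most squares lie closer to 0 than the circles.

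The same controls and the same fed arrays also served the other groups of the series, so the values that follow share them and are given side by side only. Against the controls gsr was 5.41 higher at the mid and 5.40 higher at the high concentration, gclc 4.32 and 5.04, pgd 4.81 and 4.93, and got1 3.26 and 3.28. decr1 was at -4.58 and -4.69, elovl6 at -5.68 and -5.92 and nr0b1 at -4.74 and -5.12. Effects at the low concentration for these 7 genes were the smallest of the 3 concentrations in size. igfbp1b went the other way, at 3.27 and 3.13 beside 5.02 at the low concentration, as did hamp at 2.73 and 2.60 beside 3.53. After 50 h without food, s1pr1 was 3.69 and ccn1 2.96 above fed fish, hamp 3.85 and igfbp1b 2.00, while pla2g3 was at -3.13, scd at -5.69 and got1 at -0.82.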

How the data were processed

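Members and gene lists were chosen with earlier results of these data known. The authors hybridised single-colour Agilent zebrafish arrays, normalized by quantiles, took log2 and removed a batch effect in Partek, and deposited log2 values of the probes that passed their joint comparison. The authors scanned DDVP arrays by GenePix at low and high laser power. Intensity values from Feature Extraction were deposited for the 12 nutrient restriction arrays. Food effects rebuilt from the processed signal deviated from the table with an SD of 0.0053, and from the median signal with 0.135. DDVP scanner files were not used here.

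All 32 arrays in 8 groups were fitted in limma 3.58.1 (lmFit, contrasts.fit, eBayes) under R 4.3.3, with no fold filter. The fit was tested on simulated data. The number of arrays limits the precision. Symbols came from RefSeq accessions in the scanner files. A gene was named if it was among the 10 highest or lowest called differences kept in all 20 left-out fits, among the 5 largest joint effects of the same or of opposite sign, or the highest or lowest member of a list, with up to 2 members of textbook role per list. Clone names were passed over. One list member that the rule names is not reported here. Further list members, and genes so marked in the text, were chosen after their values were seen. Nothing in the sources used here ties replicates to separate tanks, so p-values measure the spread between pools. Alternatives were either control set alone, the 20 arrays only, unmoderated or separate variances, a 1.8-fold filter, other scalings and signals, bright probes only, slide and replicate blocks, single slides and left-out arrays.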

Additional observations from a re-analysis of the deposited data

Results flagged for a closer look

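An array standing apart from the other 3 of its group of 4 was found for 29 of 575 combinations of a named gene and a group, and chance gives about 1 in 20. On low DDVP arrays replicate 3 was lowest for arl13a (10.84), nfil3 (9.35) and tfr1b (12.14), replicate 4 highest for elovl6 (11.02) and nr0b1 (9.42), and replicate 2 highest for mgst3a (13.30) and lowest for mid1ip1l (11.63). In control set 1 replicate 3 was highest for gadd45bb (7.09), gsr (9.38), mrpl20 (10.22), myca (8.59) and tfr1b (10.66) and lowest for tktb (11.81). In the same set replicate 2 was highest for elovl6 (15.03) and lowest for fbp1a (10.58), replicate 1 highest for ddrgk1 (7.85), and replicate 4 highest for map1lc3a (13.02) and lowest for srpra (11.86). In control set 2 the highest were calr (12.79), gclm (9.2), map7d1b (12.70) and sec22bb (10.70), and the lowest was mid1ip1b (10.67). Among fed arrays replicate 1 was highest for igfbp1a (13.72) and maff (8.98), and replicate 4 lowest for calr (11.41). Among unfed 29 h arrays replicate 3 was highest for gstt1b (13.59) and mgst3a (13.52) and lowest for pcbp4 (8.29).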

How the results depend on the processing

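Counts of called differences lay between 1056 and 1314 when single arrays were left out, 2157 and 2627 for the low DDVP effect and 208 and 306 for the food effect, which fell from 325 to 212 without fed replicate 1 and to 208 without fed replicate 3. Slides 1, 2 and 3 hold 1 or 2 arrays each of fed and unfed 29 h fish (a lone array was assumed to vary like the other groups). Within them 574, 207 and 165 differences and 54, 64 and 11 food effects were called. Fewer arrays enter these fits. The median standard error of the difference was 0.337 within slide 1, 0.337 within slide 2 and 0.380 within slide 3. The cause of the unequal counts was not tested. The slide as a block gave 1220 differences and 277 food effects. A 1.8-fold filter left 1683 low DDVP effects. Food effects from the median spot signal numbered 177, and 120 after normexp, and the cause was not tested. The processed signal scaled to the 75th percentile called 841 differences above 0 and 408 below (67.3% above, against 57.2%) and moved the median difference of all probes from 0.14 to 0.21. Replicate numbers showed no sign of pairing the samples. Same-number correlations ran from -0.135 to 0.144 and those of unlike numbers from -0.233 to 0.266. With so few pools this cannot exclude pairing. The replicate block called 1263 differences, 2603 low DDVP effects and 323 food effects.

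List medians that moved by more than the spread of a difference formed from 1 array per group were, for bright probes only, glutathione synthesis (0.54), and at the 75th percentile the Nrf2-linked list (0.19) and glycolysis (0.65). Within slide 1 they were cholesterol (4.25), glycogen (0.28), amino acids (1.21) and apolipoproteins (-0.72). Within slide 2 they were glutathione synthesis (0.66), pentose phosphate (0.31), insulin (1.14), clock (-0.34) and coagulation (-0.19). Within slide 3 they were the Nrf2-linked list (-0.15), fatty acid synthesis (-0.91), glycogen (0.30), amino acids (0.64), autophagy (0.45) and coagulation (-0.85). Signs turned for 8 uncalled genes: apobb.1 (0.0347) and fgg (0.0393) at the 75th percentile, atf3 (0.0734), cyp24a1 (-0.88) and mid1ip1b (0.0916) within slide 3, hamp (-0.29) and hsp70l (-0.34) within slide 2, and pcbp4 (-0.0721) within slide 1. Of the 4022 values of named genes under alternatives, 3773 kept sign and side of the threshold. That count is partly fixed by the choice of genes and is no separate measure of stability. Genes with the highest or lowest called differences were named only if every left-out fit kept the call, and those fits are among the alternatives. Uncalled genes that stayed uncalled count as kept too.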
